A study of Mus musculus with 2 samples.

Results

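The 10 genes described here are markers or regulators of airway and other epithelial cells. They are Muc1, Epcam and Cdh1 at the cell surface, the transcription factors Elf3, Grhl2, Gata6 and Trp63, and Scgb1a1, Scgb3a2 and Muc5b, which code for secreted proteins. They were chosen by name out of 21646 protein-coding genes of GENCODE release M21. The binding of CTCF around them was read from ChIP-seq peaks of newborn mouse lung tissue (strain B6NCrl, postnatal day 0). There was no second condition, only 1 group of 2 replicates. The labels number them as biological replicates but cite 1 biosample and 1 donor for both, and give no sex, so the spread between replicates may be technical. Sites are peaks of the authors' list called optimal, kept by a threshold on how reproducible a peak is (the irreproducible discovery rate, abbreviated IDR). The list has 64732 sites on the autosomes and X, and 71 of them lay in the 10 genes or within 50000 bp of them. A listed site need not have a peak in each replicate, and 68 of these 71 had one in both within 100 bp. The number of reads is unknown because the lists carry none. A value of signal is the one the authors' peak caller gave a peak, its scale not given in the sources used here. For each replicate the value came from the highest peak within 100 bp of the site's summit. The tissue is a mixture, so a site bound in few cells and a site bound weakly in many cannot be told apart. The lists measure binding and not expression, so which of the genes were active was not measured.

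CTCF recognises a long, directional DNA motif through its array of zinc fingers and halts cohesin as it extrudes chromatin loops. Loops form most readily between motifs that point towards each other, and CTCF sites can keep the enhancers of one gene from acting on the next. In the airway, basal cells are the stem cells that depend on Trp63, and club cells secrete the uteroglobin Scgb1a1. Grhl2 and Elf3 maintain the epithelial programme, of which E-cadherin (Cdh1) is the central adhesion protein.

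The CTCF core motif, a pattern of 12 bp, is shown in capitals for each gene whose sequence is given, with 9 bp to either side. Each is read 5′ to 3′ on the strand that carries the motif, in GRCm38 (mm10). They are shown because they are the letters beneath the site at the gene's promoter or, where that site is missing, beneath the nearest site with a core. The cores at Muc1, Elf3 and Scgb1a1 match the pattern with 0 mismatches and the others with 1. The Muc1 and Elf3 promoter sites carry the same 12 letters.
Muc1, chr3:89228311-89228322, plus strand: tcgcggtgaCCACTAGAGGGCaggcgtttc
Elf3, chr1:135259282-135259293, minus strand: ggcttctgaCCACTAGAGGGCagcaggcag
Cdh1, chr8:106603280-106603291, minus strand: ggggacgcaCCTGCAGGTGGCagccaagga
Grhl2, chr15:37336597-37336608, minus strand: tctctctcaCCACAAGGTGGCagtatgtga
Epcam, chr17:87662163-87662174, minus strand: attggttggCCTCCAGAGGGCacacttgat
Scgb1a1, chr19:9082636-9082647, minus strand: gcgtcgtggCCACCAGGGGGCagtgtagtc
Muc5b, chr7:141870748-141870759, plus strand: gcctgcctcACACCAGAGGGCcacgcggta
Trp63, chr16:25952195-25952206, minus strand: caccggtcaGCAGCAGAGGGCactattagc

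A CTCF site lay within 1000 bp of a transcription start site (TSS) of a protein-coding transcript at 5 of the 10 genes, namely Muc1, Elf3, Cdh1, Grhl2 and Gata6. The 5 without one were Epcam, Trp63 and the secreted-protein genes Scgb1a1, Scgb3a2 and Muc5b. Among the 21636 other protein-coding genes, 39.8% had such a site. The members' share was 50%, where the background share would give about 4 genes of 10. A site lay inside the gene in 6 members (60%), against 56.5% of the others. A site lay in the gene or within 50000 bp of it in 9 members (90%), against 87.7% of the others. All 3 shares were near the background, and no test was made. With TSSs within 500 bp, 3 members kept a promoter site (Elf3, Cdh1 and Gata6). The share of other genes at that distance was not computed.

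**Figure D1:**
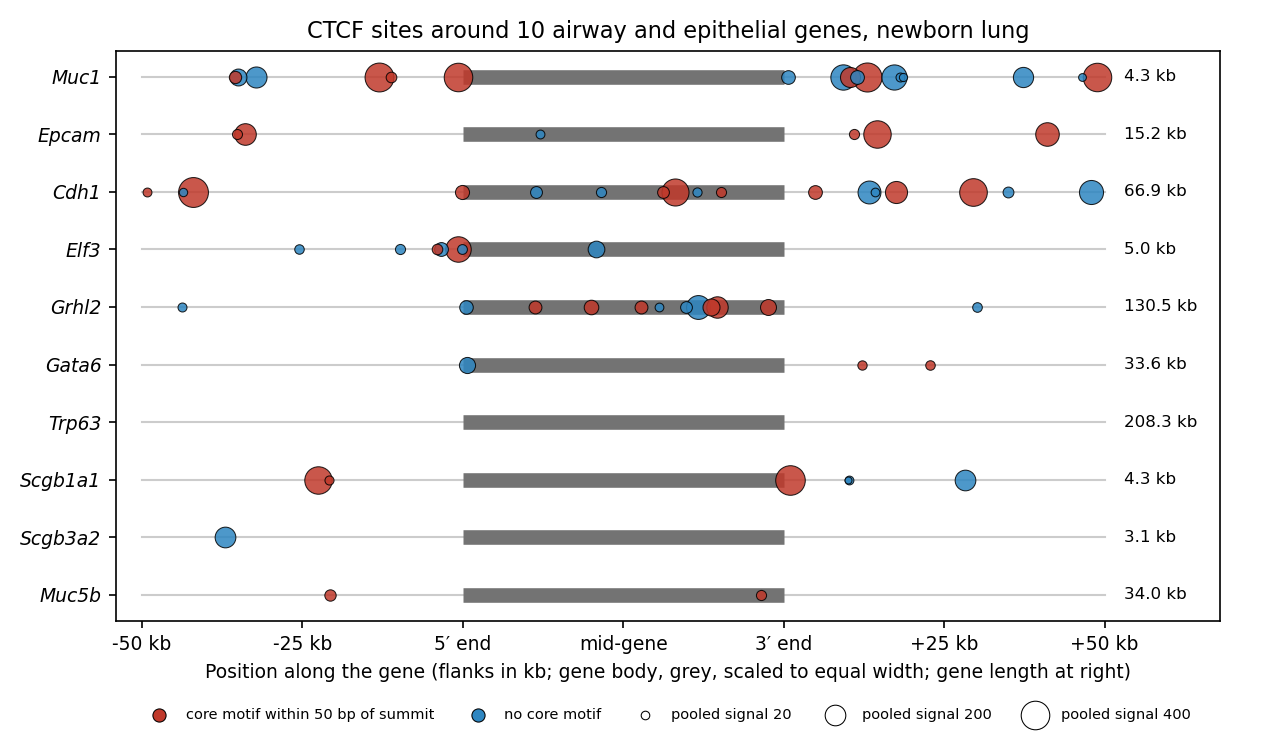
Sites of the optimal list along each gene, from 50 kb before the 5′ end to 50 kb past the 3′ end, with gene bodies (grey) scaled to equal width. Each circle is 1 site, its area follows the pooled signal, and red marks sites with the core motif within 50 bp of the summit. Muc1 and Cdh1 have 17 sites each and Trp63 has 0.

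Muc1, a membrane mucin of the apical surface (chromosome 3, 89229057 to 89233381, plus strand), had a strong site at its promoter and one of middling signal just past its 3′ end. Its promoter site (89228170 to 89228450) lay 753 bp upstream of the TSS with a signal of 198 (replicate 1) and 204 (replicate 2), higher than 96.1% of all sites in the pooled signal. On the other side a site 679 bp past the 3′ end had 52.1 and 24.6, higher than 50.6% of all sites, and the replicates differed more there. The gene itself held 0 sites. These flanking sites are 5756 bp apart and enclose Muc1 alone. Its neighbours are close: the 5′ end of Mtx1, on the other strand, lies 1969 bp upstream, and the 3′ end of Trim46 lies 796 bp past the 3′ end of Muc1, with 1 site in each gap. The window held 17 sites, of which 4 were among the strongest 10% of all sites. Besides the promoter site, those were 12967 bp upstream at a TSS of Thbs3 (200 and 208), 17318 bp downstream of the Muc1 5′ end at the TSSs of Krtcap2 and Trim46 (218 and 198), and 53095 bp downstream of it in intergenic sequence (215 and 186). Per 100 kb the window held 16.3 sites, a density higher than that of 98.7% of other protein-coding genes.

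Cdh1, which codes for E-cadherin (chromosome 8, 106603351 to 106670246, plus strand), carried a site of middling signal at its TSS. That site lay 40 bp upstream and had 39.2 in replicate 1 and 47.9 in replicate 2, close to the middle of all sites (52.4% were lower). From the peaks of replicate 2 alone its summit lay 69 bp upstream. Its strongest intronic site, 44249 bp into the gene, reached 179 and 180. The other 5 sites in the gene, all intronic, were weaker, between 10.7 and 33.1 in replicate 1 and between 7.62 and 30.4 in replicate 2. Of 2496 other genes of 50000 to 100000 bp, 86.5% held fewer than the 6 sites of Cdh1. The strongest site of its window, 42081 bp upstream between Cdh3 (P-cadherin) and Cdh1, had 238 and 200, which was higher than 98.3% of all sites. Past the 3′ end, the nearest site lay 4898 bp away (38.4 and 39.7), between Cdh1 and Tango6. Upstream, the promoter site was the only one in the 29890 bp between Cdh1 and Gm10073. In all the window held 17 sites, as many as that of Muc1, over a longer span. It held 14 in the conservative IDR list, 14 without replicate 1 and 15 without replicate 2. The window of Muc1 then held 17, 16 and 20. The gene body of Cdh1 held 5 sites in the conservative list and 5 without replicate 1.

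Epcam, an adhesion molecule found on nearly all simple epithelia (chromosome 17, 87635979 to 87651129, plus strand), had no promoter site in the optimal list. Replicate 1 had a peak of 10.1 at 127 bp from its TSS, replicate 2 had none within 1000 bp, and the pooled list had one of 14.4 that did not pass the IDR threshold. A weak intronic site (9.46 and 10.9) lay 3643 bp into the gene, and it was missing from the 64732 highest peaks of replicate 1 alone. The nearest site on the 5′ side was 33882 bp away, with 117 in replicate 1 and 104 in replicate 2. That on the 3′ side was 11011 bp past the gene, with 23.6 and 12.7. A much stronger site followed 29636 bp from the 5′ end (190 and 178). The gap of 189044 bp between Epcam and Calm2 upstream held 12 sites.

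Among the transcription factors, Elf3, an ETS factor of epithelia (chromosome 1, 135253575 to 135258568, minus strand), had 2 promoter sites. The upstream one, 716 bp from the 5′ end, had 175 in replicate 1 and 139 in replicate 2. The one 99 bp from the 5′ end was about an order of magnitude weaker, with 16.2 and 14.5, and had no core. With peaks matched within 50 bp in place of 100 bp, replicate 2 had no peak at it, and without replicate 1 (with the 64732 highest peaks of replicate 2 as the sites) the nearest summit was 178 bp upstream. A site in a coding exon of Elf3 had 57.8 and 67.7. Upstream sites at 3348, 3988, 9700 and 25522 bp were all weaker than the stronger promoter site, and the farthest had no peak of replicate 1 within 100 bp. The 3′ side was empty as far as 81457 bp, where a site had 161 and 144. That site and the stronger promoter site carry cores that face each other across the gene. The nearest genes are Rnpep, 4144 bp upstream with 4 sites between, and Gpr37l1, 85894 bp past the 3′ end with 2.

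Grhl2, a grainyhead factor that activates Cdh1 and other junction genes (chromosome 15, 37233036 to 37363569, plus strand), held most of its sites inside the gene. Of the 12 sites in its window, 10 were in the gene body. Among 1483 other genes of 100000 to 200000 bp, the median was 4 sites and 88.3% had fewer than 10. The strongest, 95804 bp from the 5′ end in an intron, had 143 in replicate 1 and 128 in replicate 2. The promoter site, 103559 bp inside the gene, lay 858 bp from the start of a shorter annotated transcript and had 123 and 95.7. At the outermost 5′ end the nearest site was intronic, 1516 bp downstream (37.2 and 38.2), outside the distance set for a promoter. The flanks were nearly empty, with a site of 12.1 and 12.1 at 43700 bp on the 5′ side and one of 15.7 and 13.7 at 30058 bp on the 3′ side, in an intron of Ncald. No site lay in the 2606 bp between Grhl2 and Ncald, and 11 lay in the 225263 bp between Grhl2 and Zfp706 upstream.

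Gata6, a zinc finger factor needed for lung endoderm and airway differentiation (chromosome 18, 11052064 to 11085635, plus strand), had 1 site in the gene and at its promoter. It lay 444 bp inside the gene and 38 bp from the TSS of another transcript, and had 50.7 in replicate 1 and 70.7 in replicate 2, with no core. The summits of the 2 replicates lay to either side of the site, and neither replicate had a peak within 50 bp of it, so these values depend on matching within 100 bp. On the 5′ side no site was found for 94225 bp, and the one there was weak (11.2 and 7.16). That distance was 166106 bp without replicate 1 and in the authors' second IDR list, called conservative, and 166105 bp without replicate 2. Without replicate 1 the gene held 2 sites in place of 1. On the 3′ side, sites at 12248 bp (14.5 and 11.6) and farther out (15.8 and 10.4) were weak too. The nearest genes are Mib1, 233360 bp upstream with 5 sites between, and Rbbp8, 547641 bp past the 3′ end with 14.

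Trp63, the p63 factor of basal cells (chromosome 16, 25683763 to 25892102, plus strand), had no site in its 208340 bp and none within 50000 bp of it. The nearest were 218115 bp before the 5′ end (12.6 in replicate 1 and 10.4 in replicate 2) and 53539 bp past the 3′ end (29.6 and 19.3), so that 479993 bp were free of sites. Of 994 other genes at least 200000 bp long, 24 (2.41%) had no site in the same kind of window, and their median was 7 sites in the gene body. The longer lists held only weak peaks there. Over the 308340 bp of gene and flanks, replicate 1 had 18 peaks with a highest signal of 5.31, and replicate 2 had 18 with a highest of 9.34. None of them lay within 1000 bp of a Trp63 TSS, which include the starts of the long and the N-terminally truncated forms of the protein. The first site with a core on the 3′ side, 60117 bp past the gene, had 79.5 and 84.8. The nearest genes are Tprg, 261419 bp upstream with 3 sites between, and P3h2, 67186 bp past the 3′ end with 2.

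The 3 secreted-protein genes had no promoter site, and 2 of them had few sites at all. Scgb1a1, the main secretory product of club cells (chromosome 19, 9083636 to 9087958, minus strand), had a very strong site 996 bp past its 3′ end (9082490 to 9082768), with 223 in replicate 1 and 208 in replicate 2. It was higher than 98.0% of all sites and was the only one between Scgb1a1 and Ahnak, which are 6722 bp apart. On the 5′ side a weak site lay 20773 bp away (13.9 and 9.46). A strong one followed at 22484 bp, in untranslated sequence of Asrgl1 (174 and 195). A peak of 10.3 in replicate 2, at 58 bp from the Scgb1a1 TSS, had no counterpart in replicate 1 and did not pass the IDR threshold. One further site, 14288 bp from the 5′ end, had no peak of either replicate within 100 bp. The window held 6 sites, but 4 in the conservative list, 4 without replicate 1 and 4 without replicate 2.

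Scgb3a2, a related secretoglobin (chromosome 18, 43764289 to 43767399, plus strand), had 1 site in its window, 37074 bp upstream, with 99.3 in replicate 1 and 103 in replicate 2. In the conservative IDR list its window held 2 sites, the nearer 5652 bp upstream, and without replicate 1 also 2, the nearer 5648 bp upstream. On the 3′ side the nearest was 69164 bp away (90.1 and 100.5). In the optimal list the interval between the nearest sites, 109348 bp, also holds the TSSs of Spink1, a trypsin inhibitor, and Gm94. No peak lay within 1000 bp of a Scgb3a2 TSS in any of the 3 longer lists.

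Muc5b, the gel-forming mucin of airway mucus (chromosome 7, 141839070 to 141873084, plus strand), had 2 weak sites in its window. One was in a coding exon near the 3′ end of the gene, with 16.1 in replicate 1 and 17.0 in replicate 2. The other lay 20652 bp upstream in an intron of Muc5ac, the neighbouring gel-forming mucin, with 25.4 and 21.8. No site separated the annotated ends of Muc5b and Muc5ac, which are 19839 bp apart. None separated Muc5b from Tollip, 1729 bp past its 3′ end. The nearest site on the 3′ side was 52023 bp away and strong (175 and 156). Without replicate 2 the nearest was 29188 bp away and the window held 3 sites. Peaks of 4.33 in replicate 1 and 3.86 in replicate 2, at 175 and 176 bp from the Muc5b TSS, did not pass the IDR threshold.

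The number of sites in the gene and 50000 bp to either side had a median of 6 over the 10 members and of 6 over the other protein-coding genes (quartiles 3 and 10). The members spread widely, with 17 at Muc1 and Cdh1, 12 at Grhl2, 7 at Elf3, 6 at Epcam and Scgb1a1, 3 at Gata6, 2 at Muc5b, 1 at Scgb3a2 and 0 at Trp63. A longer gene has a longer window, and the members had a median length of 24362 bp, against 17385 bp for the others. From the 5′ end, the nearest site outside the gene lay at a median of 27328 bp in the members and 13407 bp in the others (quartiles 2203 and 46094 bp). From the 3′ end the medians were 21153 bp in the members and 15427 bp in the others. These 3 member medians lay within the quartiles of the other genes.

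**Figure D2:**
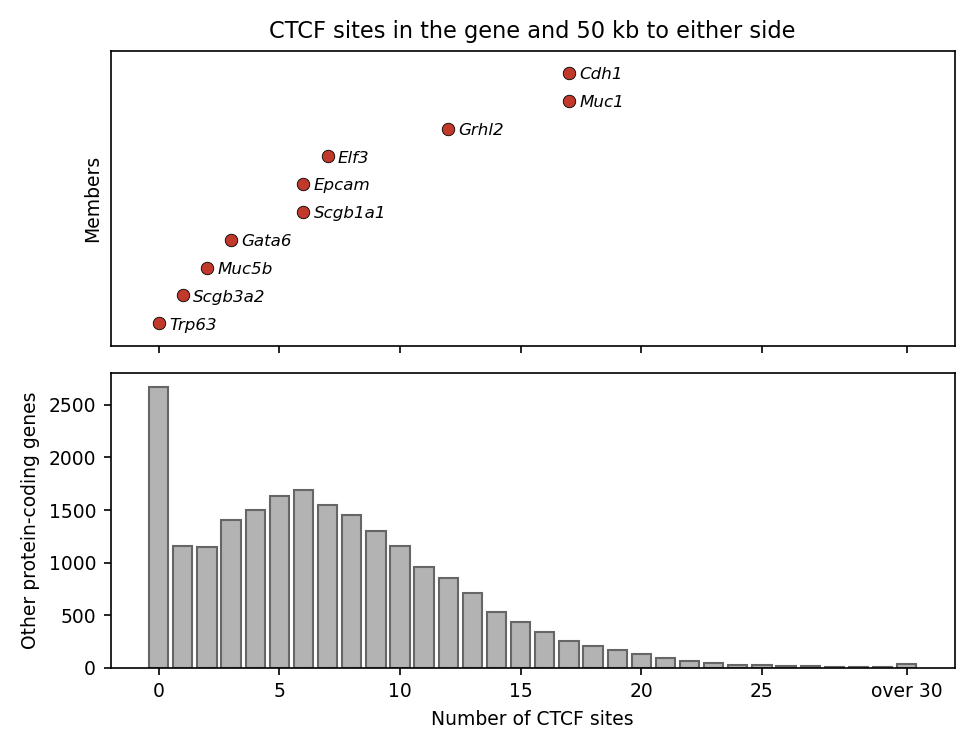
The number of CTCF sites in each gene and 50 kb to either side, for the 10 members (top, 1 point per gene) and as a histogram of the 21636 other protein-coding genes (bottom). The members run from 0 at Trp63 to 17 at Muc1 and Cdh1, and both medians are 6.

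In 8 of the 10 genes, the nearest sites on either side enclosed no TSS of another protein-coding gene. The exceptions were Scgb3a2 and Muc5b. Among 21523 other genes with a site on both sides, 39.2% were enclosed alone. Both counts come from the optimal list only and were not repeated with the other lists. The interval ran from 5756 bp at Muc1 to 479993 bp at Trp63. It was 204291 bp at Grhl2 and 140044 bp at Gata6. The sites at its ends lie outside the gene, so sites in the gene can lie within it, 10 at Grhl2 and 1 at Gata6. Only TSSs were counted, so parts of a neighbouring gene can lie inside, as that of Ncald does beside Grhl2. Taking the nearest site with a core on each side, the 2 cores faced each other across Muc1, Elf3, Epcam and Scgb3a2 (4 genes). They pointed apart across Cdh1 and lay on the same strand at the other 5. Of the other protein-coding genes, 27.9% had facing cores, 25.6% had cores pointing apart and 46.4% had both on the same strand. The interval between such cores can be longer than that between the nearest sites, since sites with no core are passed over.

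The core motif was present, with at most 1 mismatch and within 50 bp of the summit, at 36 of the 71 sites around the members (50.7%, 95% Wilson interval 39.3% to 62.0%), against 48.3% of all sites. With no mismatch allowed the members' share was 9.86%, and the share of all sites was not computed at that setting. All 10 of the members' sites that ranked among the strongest 10% of the list had it, against 74.4% of the 6473 strongest sites of the whole list. They were 14.1% of the members' sites and lay around only 4 genes, Muc1 (4), Cdh1 (3), Scgb1a1 (2) and Epcam (1). No test was made on these few sites. The interval covers counting error only.

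One spelling of the core recurred around the members. It was chosen after the sequences were seen, as the most frequent one, and it lay beneath 9 of the 36 sites. Over all sites it was the most frequent of 408 spellings as well, at 6008 of 30913 sites with a single best core (19.4%, against 25% around the members). All 9 were in sequence that the reference marks as repetitive, as were 99.6% of those over all sites, but 1 of the members' 27 other cores and 9.63% of other cores over all sites. Rodent B2 short interspersed elements are known to carry CTCF motifs, but the reference used here does not name the repeats. The sequences below show the 8 of these sites whose letters are given here, with the core in capitals, to show how far the likeness runs past the core. Over the 18 flanking bases, pairs of these 8 were identical at 56.0% of positions on average, and pairs among 26 other cores around the members at 28.4%.
Muc1, 35533 bp upstream, chr3:89193527-89193538, plus strand: gcttggaggCCAGAAGAGGGCatcagacct
Epcam, 35077 bp upstream, chr17:87600885-87600896, plus strand: gcctgcatgCCAGAAGAGGGCatcatatcc
Cdh1, 49122 bp upstream, chr8:106554205-106554216, minus strand: cggtggaggCCAGAAGAGGGCactggacac
Cdh1, intron, chr8:106657192-106657203, minus strand: ccttaaaggCCAGAAGAGGGCatcacatcc
Cdh1, 29507 bp past the 3′ end, chr8:106699750-106699761, plus strand: ctgagaaggCCAGAAGAGGGCatcagatcc
Scgb1a1, 20773 bp upstream, chr19:9108735-9108746, minus strand: atctacatgCCAGAAGAGGGCatcggctcc
Grhl2, intron, chr15:37285291-37285302, plus strand: gcctgcatgCCAGAAGAGGGCgccagatct
Grhl2, intron, chr15:37357135-37357146, plus strand: ttagggaggCCAGAAGAGGGCaccagagcc

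The sites with this spelling were mostly weak. Their median pooled signal was 34.2, against 217 at the members' sites with other cores. Over all sites the medians were 51.2 with the spelling and 172 with other cores. Of the 9 sites, 6 ranked below the middle of all sites. The strongest of the other 3 was in an intron of Tango6, past the 3′ end of Cdh1, with 210 in replicate 1 and 165 in replicate 2, and the remaining ones were in introns of Grhl2 (50.9 and 38.1, and 56.4 and 51.3). None of the promoter sites of the members had it.

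A peak was found in both replicates at 68 of the 71 sites. The log2 ratio of replicate 1 over replicate 2 had a median of 0.10 and an SD of 0.50 over these 68 sites, and a median of 0.09 and an SD of 0.46 over the 63131 sites of the whole list that had both peaks. The widest log2 ratios were at weak sites, -1.74 in an intron of Ahnak near Scgb1a1 (5.35 in replicate 1 and 17.9 in replicate 2) and 1.68 in an intron of Cdh1 (24.5 and 7.62). At the promoter sites the larger value was in replicate 1 at Elf3 and Grhl2 and in replicate 2 at Muc1, Cdh1 and Gata6. Of the 71 sites, 61 (85.9%) also had a site of the authors' conservative IDR list within 100 bp, among them every promoter site of the 5 genes. The conservative list holds 62048 sites on the same chromosomes. The share of all sites with such a match was not computed.

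**Figure D3:**
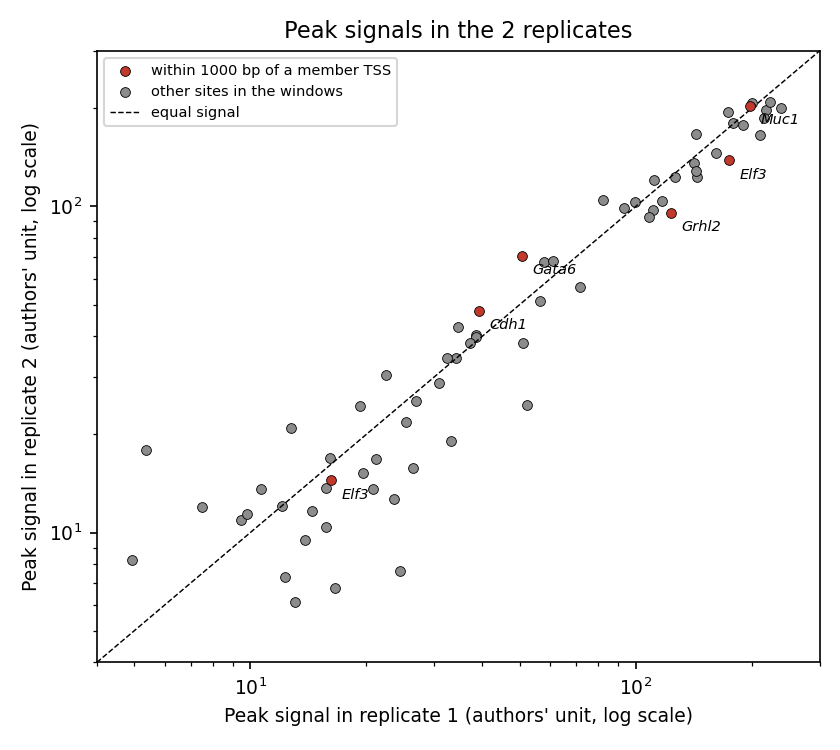
Peak signal in replicate 2 against replicate 1 (log scales) for the 68 sites around the members with a peak in both. Red points lie within 1000 bp of a member's TSS and are labelled by gene, and the dashed line marks equal signals. The stronger promoter sites, at Muc1, Elf3 and Grhl2, lie in the upper part of the range and the weaker Elf3 site in the lower part.

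Lists of related genes were set beside the members, as counts with no test. Of 18 genes of epithelial adhesion and junctions, 10 had a promoter site (55.6%). Strong ones were at Marveld3, a tight junction protein (190 in replicate 1 and 200 in replicate 2), and Jup, the plakoglobin of desmosomes and adherens junctions (78.4 and 62.9). Of 16 epithelial regulators of transcription and splicing, 6 had one (37.5%). Elf5, a close relative of Elf3, led with 177 and 175 at a TSS 13170 bp inside the gene, followed by the forkhead factor Foxa1 (105 and 81.0) and Klf5 (39.8 and 44.7). The other grainyhead genes, Grhl1 (18.8 and 27.3) and Grhl3 (12.9 and 19.4), had weak sites within 1000 bp of their 5′ ends. At Grhl2 the promoter site was internal, and the site nearest the outermost 5′ end (37.2 and 38.2) lay 1516 bp inside, past that distance.

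Markers of airway cell types varied. Among secretory and goblet cell genes, 3 of 10 had a promoter site, none above 50 in either replicate: Foxa3 (40.4 and 36.5), Aldh1a7 (31.3 and 35.7) and Bpifb1 (30.7 and 30.1). Ciliated cell genes had one at 5 of 10, led by Mcidas (146 and 131), which drives the formation of multiple cilia, and Dnaic1, a dynein arm component (103 and 116). Foxj1 (90.5 and 89.2), the master factor of motile cilia, and Tppp3 (92.7 and 74.5) tied for the next rank. Basal cell genes had one at 5 of 10, led by Dlk2 (217 and 213), Snai2 (160 and 163) and the integrin Itgb4 (50.4 and 40.5). Neuroendocrine genes had one at 2 of 10, the stronger at Calca, which codes for calcitonin and its gene-related peptide (92.8 and 79.8). Among 16 mesenchymal counterparts 11 had one (68.8%), led by Snai1, a repressor of Cdh1 (183 and 219), Snai2, which also stands in the basal list, and Zeb2 (67.3 and 61.3). Every gene of the 7 related lists had a site in the gene or within 50000 bp. Of the 10 members 9 had one, as did 87.7% of the other protein-coding genes.

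**Figure D4:**
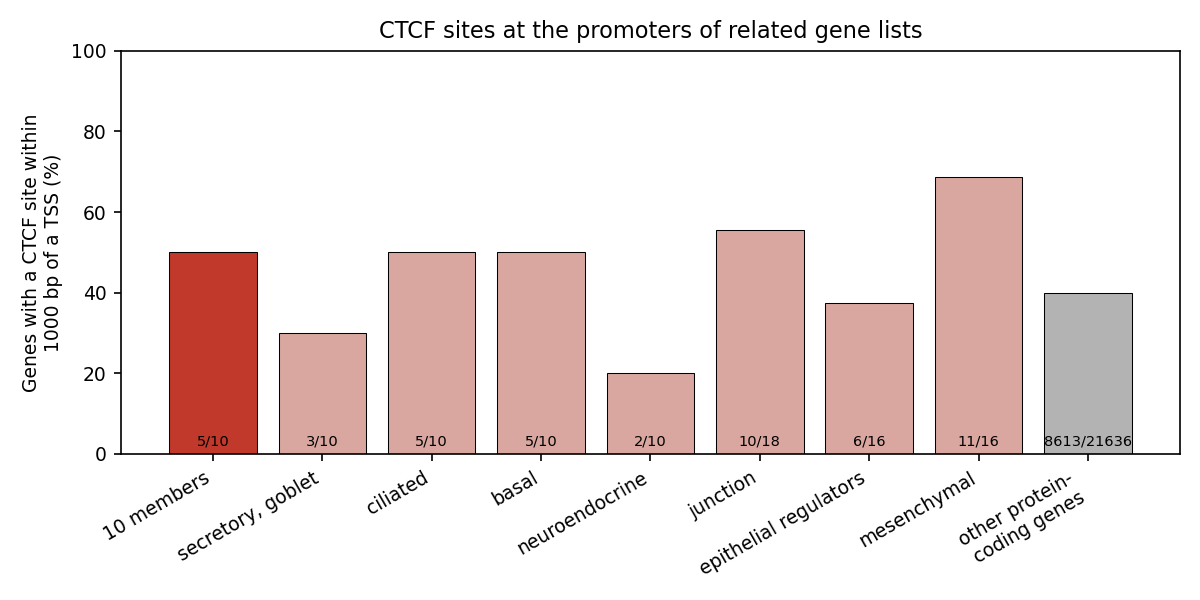
Share of genes with a CTCF site within 1000 bp of a TSS in the 10 members, in 7 related lists and in the other protein-coding genes, with the count in each bar. The lists are chosen genes and not samples, so no error bars are drawn. Shares run from 20% in the neuroendocrine list to 68.8% in the mesenchymal list, with 50% in the members and 39.8% in the other genes.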

How the data were processed

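Peak lists of CTCF ChIP-seq in newborn mouse lung were analysed (1 group, 2 replicates numbered in the labels). Per the labels, the lists use mm10. Per the deposited descriptions, each replicate's list came from its alignments and 1 further file of unstated role, the pooled list from both replicates, and the IDR lists from these 3. The aligner, the peak caller and the threshold on the IDR were not given in the sources used here. Each list of a replicate holds 300000 peaks. Column 7 of the deposited lists holds the peak caller's signal, and summits are offsets from the peak start. The 10 sites of the optimal list on other contigs were left out.

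From these, distances to genes and TSSs (GENCODE M21, protein-coding transcripts, genes counted by symbol, the longest record where a symbol repeats) and core matches in 101 bp windows of the RefSeq GRCm38.p6 genome were computed with Python 3.11.15, numpy 2.4.6 and scipy 1.17.1. A body site has its summit between gene start and end. The 12 bp core is a consensus with ambiguous letters, searched on both strands. Both measures were checked on made-up sequences and genes. No hypothesis test was run, since there is 1 group. Members and lists were chosen with earlier results of these data known. All members are named, with promoter sites, strongest body site, nearest sites, strongest window site and nearest neighbours, and so are the 3 promoter sites of each related list with the best mean rank over the replicates. The recurrent core spelling and the other examples were chosen after their values were seen. Dnai1 is Dnaic1 in the annotation. Sequences of Gata6 and Scgb3a2, and a few genes that these rules name, are not reported here.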

Additional observations from a re-analysis of the deposited data

How the results depend on the processing

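No paired analysis was possible because there was 1 group. Of 38 alternative values, 24 stayed within 1.5 times a count or within the SD of the values from each replicate alone, and 14 moved. The number of members with a promoter site was 5 with the conservative IDR list, with the 32366 sites of highest signal and with the highest peaks of either replicate alone, 4 with 1 TSS per gene, 6 within 5000 bp and 3 within 500 bp. The median number of sites per member was 4.5 with the conservative list, 3 with the sites of highest signal, 4.5 to 5 without either replicate, 4 with flanks of 25000 bp and 9.5 with flanks of 100000 bp. The median distance to the nearest site on the 5′ side was 20712.5 bp with the conservative list, 35478 bp with the sites of highest signal and 21564.5 to 27330 bp without either replicate. On the 3′ side it was 56070 bp with the sites of highest signal and 20222.5 to 21159.5 bp without either replicate. The share of sites with the core was 9.86% with no mismatch and 73.2% with at most 2. The list of highest signal holds fewer sites, which lengthens distances by construction. All these alternatives were computed for the members only. The other genes and the whole list of sites were not put through them, so these values have no background beside them. Depth is unknown, so an empty stretch, such as that at Trp63, means that no peak passed the IDR threshold there.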
